A study of Bos taurus with 14 samples.

Results

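ROBO4, NOTCH4 and F2R encode 3 receptors of the blood vessel wall, and their levels were described in the livers of newborn calves. They are 3 of the 27607 genes in the count table and were found by their Ensembl identifiers, ENSBTAG00000004356 for ROBO4, ENSBTAG00000025424 for NOTCH4 and ENSBTAG00000020199 for F2R, which the study's supplementary tables pair with these names. The 3 genes were chosen by values measured in these same calves, namely the difference between the diets and, for NOTCH4, its connectivity in networks of genes. Levels and fold changes between the diets are therefore given as a description, with no test. All 3 genes passed the filter on low counts, and 13307 genes were tested.

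The samples were the livers of 14 female Bos taurus calves, 7 from dams fed the basal ration (CON) and 7 from dams fed the same ration plus a vitamin and mineral premix of 113 g per heifer and day (VTM), from 60 days before breeding until calving. The dams were crossbred Angus-based heifers bred to 1 bull with sexed semen, so the calves shared a sire. All calves of both diets were fed colostrum replacer and then milk replacer, with no suckling, and liver was taken at 30 h. The study left 2 calves, CON calf 19 and VTM calf 10, out of its comparison for low unique alignment, which leaves 6 calves per diet. Each library is 1 calf, and calves are named here by diet and number.

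The endothelium lines every vessel of the liver, from portal and central veins to the fenestrated sinusoids between the hepatocytes. ROBO4 is the endothelial member of the roundabout family, receptors best known from axon guidance, and it is known for keeping vessels stable and less leaky. NOTCH4 is a Notch receptor expressed mainly in endothelium. When a ligand on a neighbouring cell binds, Notch receptors are cut, and the freed intracellular part acts with RBPJ on target genes of the HES and HEY families. F2R encodes PAR1, the receptor that thrombin activates by cutting off its N-terminal end. PAR1 signals through G proteins in endothelium, but it is also found on fibroblasts, stellate cells and smooth muscle, so it is the least restricted to vessels of the 3.

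Total counts ranged from 13382264 to 20125409 per calf over the 14 libraries, and from 14989388 over the 12 that the study analysed. Levels are counts scaled to library size (CPM) after TMM normalization over all 14 libraries, and each printed count has an error of its own, given as an exact Poisson 95% interval that covers counting alone. The library of VTM calf 40 was unlike those of its diet, since 27.1% of tested genes lay over 2-fold from the median of the other calves. The share was 28.02% in CON calf 31, 22.2% in CON calf 19 and 18.6% in CON calf 25, and 1.73% to 7.68% in the remaining 10. Of the 3509 genes whose mean in the other libraries corresponded to 100 to 300 counts, where most counts of ROBO4 and NOTCH4 lie, 2.88% had 0 counts in VTM calf 40, against at most 0.406% in any other library. AHSG, a secreted hepatocyte protein, was at 4281 to 15755 CPM in the 12 calves, among the markers that define liver. Only 629 identifiers were paired with names, nearly all of them genes that the study had picked on these calves, which limits every gene list below.

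ROBO4 was lower in VTM than in CON, and it had the smallest p of all 6955 genes with a negative fold change, the value for which it was picked. In CON it was at 14.5 CPM in calf 1, 31.1 in calf 7, 15.3 in calf 13, 23.6 in calf 25, 23.3 in calf 31 and 27.6 in calf 37. In VTM it was at 12.9 CPM in calf 4, 11.9 in calf 16, 10.4 in calf 22, 11.4 in calf 28, 13.2 in calf 34 and 6.39 in calf 40. The 12 calves did not overlap, but the CON calves fell into a low pair, 1 and 13, close to the VTM calves, and 4 calves well above them. The counting interval of CON calf 1, 12.7 to 16.5 CPM, overlapped that of VTM calf 34, 11.6 to 15.01 CPM. The mean was 22.6 ± 6.60 CPM in CON and 11.05 ± 2.505 CPM in VTM (SD, n = 6 each), and the log2 fold change from edgeR's fit to the 12 calves was -1.03 (SE 0.22).

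The calves that the study left out were low in ROBO4. CON calf 19 was at 13.01 CPM, the lowest of the 7 CON calves and below VTM calf 34, and VTM calf 10 was at 9.54 CPM, with VTM calf 40 alone below it in its diet. With CON calf 19 included the diets overlapped. The fold change moved little, at -0.97 (SE 0.22) over all 14 calves, -1.06 without CON calf 19, -0.87 without VTM calf 40 and -0.97 without both.

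NOTCH4 was also lower in VTM, by a smaller margin. In CON it was at 8.13 CPM in calf 1, 12.8 in calf 7, 9.31 in calf 13, 8.66 in calf 25, 17.1 in calf 31 and 13.01 in calf 37. In VTM it was at 7.80 CPM in calf 4, 7.96 in calf 16, 7.98 in calf 22, 7.75 in calf 28, 7.63 in calf 34 and 2.84 in calf 40. The 12 calves did not overlap, yet the gap was narrow, from 7.98 CPM in VTM calf 22 to 8.13 in CON calf 1, well inside the counting intervals of 6.77 to 9.34 and 6.79 to 9.66 CPM. The mean was 11.5 ± 3.46 CPM in CON and 6.99 ± 2.04 CPM in VTM (SD, n = 6 each), with a log2 fold change of -0.72 (SE 0.27). Of the 6955 genes with a negative fold change, 149 had a smaller p.

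The 5 VTM calves other than calf 40 had nearly the same measured level of NOTCH4. They spanned 7.63 to 7.98 CPM, a coefficient of variation of 1.89%, against 30.1% in CON. Counting alone gives 8.23% in these 5, more than was seen, so the values cannot show how alike the calves were. With VTM calf 10 added, the coefficient of variation was 7.75%. VTM calf 40, with 47 counts, differed by -1.32 on the log2 scale from the median of the other VTM calves, and 18.8% of all tested genes in that library lay at least as far from theirs. Without it the fold change was -0.56 (SE 0.20). VTM calf 10, at 9.32 CPM, was the highest VTM calf, and CON calf 19, at 8.09 CPM, the lowest CON calf, so the diets overlapped once VTM calf 10 was included. Over all 14 calves the fold change was -0.59 (SE 0.25), and it was -0.65 without CON calf 19, -0.45 without VTM calf 40 and -0.52 without both.

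F2R went the other way and was higher in VTM. In CON it was at 5.55 CPM in calf 1, 6.43 in calf 7, 3.59 in calf 13, 3.20 in calf 25, 2.83 in calf 31 and 3.68 in calf 37. In VTM it was at 6.71 CPM in calf 4, 5.43 in calf 16, 5.40 in calf 22, 4.19 in calf 28, 6.97 in calf 34 and 12.1 in calf 40. The diets overlapped, with CON calves 1 and 7 among the VTM calves, and VTM calf 28 close to the CON calves. The mean was 4.21 ± 1.44 CPM in CON and 6.79 ± 2.77 CPM in VTM (SD, n = 6 each), with a log2 fold change of 0.69 (SE 0.30). Of the 6352 genes with a positive fold change, 133 had a smaller p.

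F2R rested on few reads and depended most on VTM calf 40. It had 35 counts in CON calf 31, the fewest, and 200 in VTM calf 40, the most, where it lay 1.08 above the median of the other VTM calves on the log2 scale. In that library 24.7% of tested genes lay at least as far from their own median, and 32.1% lay at least as far as ROBO4, which differed by -0.85. Without VTM calf 40 the mean of VTM was 5.74 ± 1.13 CPM (SD, n = 5) and the log2 fold change 0.44 (SE 0.26). CON calf 19 was the lowest CON calf at 2.65 CPM and VTM calf 10 was at 6.04 CPM. The fold change was 0.74 (SE 0.28) over all 14 calves, 0.66 without CON calf 19, 0.53 without VTM calf 40 and 0.45 without both.

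**Figure D1:**
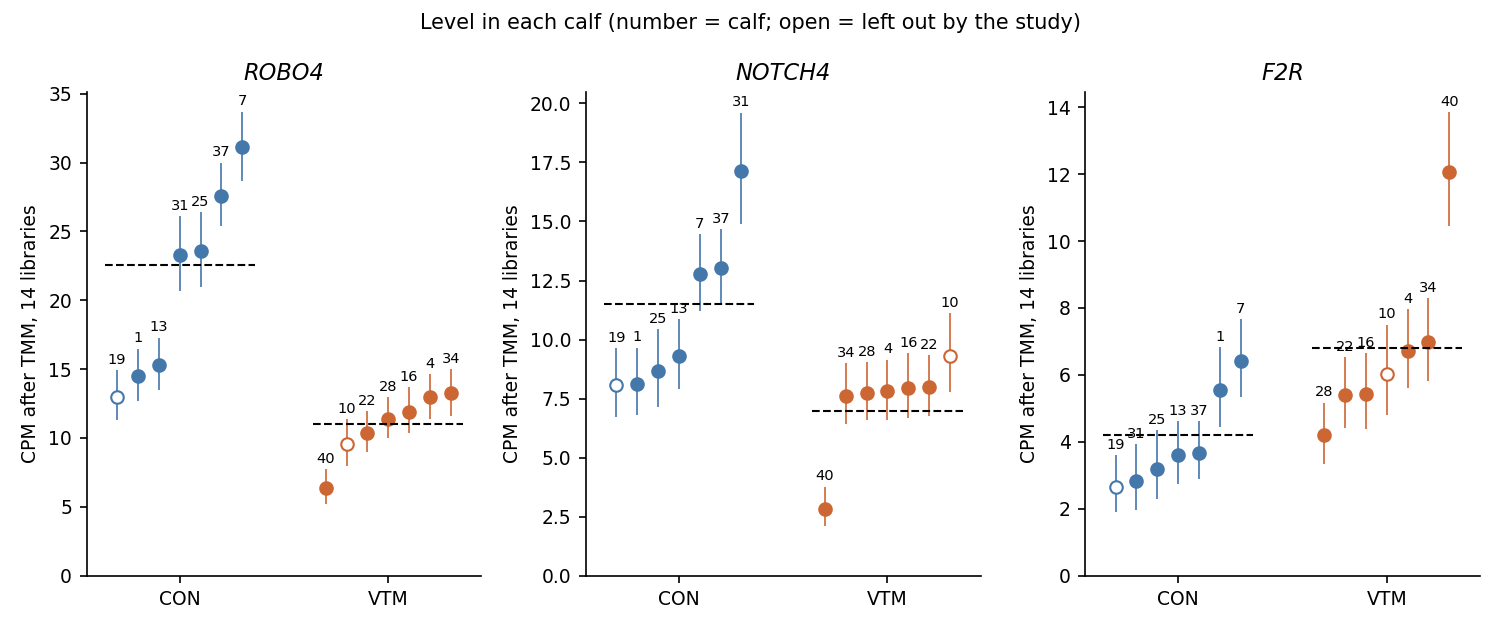
Level of ROBO4, NOTCH4 and F2R in each of the 14 calves, in CPM after TMM normalization, ordered by level within each diet. Points are calves, labelled by number, bars are exact Poisson 95% intervals for counting alone, dashed lines are means of the 6 calves per diet that the study analysed, and open points are the calves it left out. VTM calf 40 is the lowest VTM calf in ROBO4 and NOTCH4 and the highest in F2R, and CON calf 19 is the lowest CON calf in all 3 genes.

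In 2 of the 3 genes, ROBO4 and NOTCH4, all VTM calves of the 12 were below all CON calves. Among all tested genes this held for 16 of 13307, which is 0.12%. Over all 14 calves it held for none of the 3, and for 1 of 13311 tested genes, 0.00751%. Because the difference between the diets chose the genes, nothing is read from these shares. The signs of the 3 fold changes were the same with and without VTM calf 40 and CON calf 19. ROBO4 and NOTCH4 were negative and F2R positive in each of the 6 sets of calves. These sets share most of their calves, and the genes were picked on this difference, so the signs too are a description only.

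**Figure D2:**
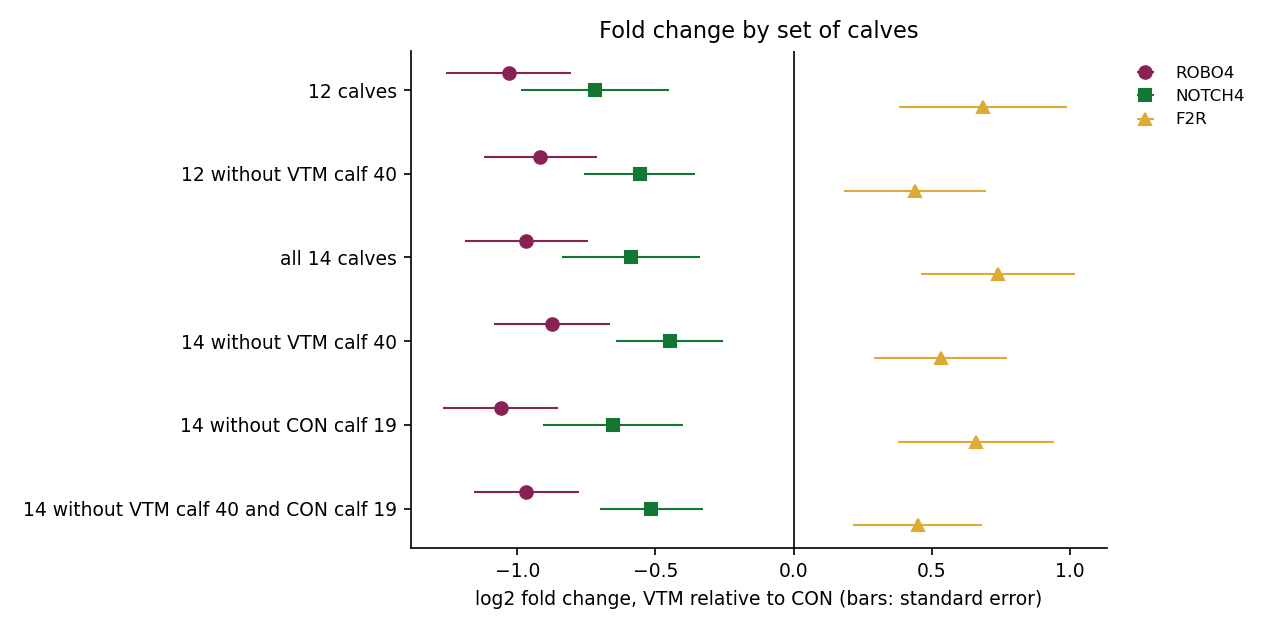
Log2 fold change of VTM relative to CON for ROBO4, NOTCH4 and F2R in 6 sets of calves, with standard errors as bars, from edgeR's quasi-likelihood fit across all tested genes. ROBO4 lies between -1.06 and -0.87, NOTCH4 between -0.72 and -0.45 and F2R between 0.44 and 0.74, and all sets without VTM calf 40 have NOTCH4 and F2R closer to 0 than the same sets with it.

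Ratios of counts within a calf need no normalization between libraries, and they are given here as a description of single animals. The genes were picked on their difference between the diets, so a gap between the diets in the ratios with F2R is not independent evidence. For F2R to ROBO4, the 7 CON calves were between 0.122 in calf 31 and 0.383 in calf 1, and the VTM calves other than 40 between 0.368 in calf 28 and 0.633 in calf 10. VTM calf 40 was at 1.89, far above every other calf. The diets met at a single point, where CON calf 1 was above VTM calf 28. The ratio of F2R to NOTCH4 was 0.165 to 0.682 in CON and 0.541 to 0.914 in VTM apart from calf 40, which was at 4.26. The ratio of ROBO4 to NOTCH4 overlapped widely, with 1.36 to 2.72 in CON and 1.02 to 2.26 in VTM. CON calf 19 was inside the range of the other CON calves in each ratio, at 0.204, 0.328 and 1.61, although it was the lowest CON calf in each gene.

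Whether the 3 genes agreed from calf to calf within a diet was examined after the mean of each diet was subtracted from log2(CPM + 0.5). Over the 12 calves ROBO4 and NOTCH4 had a Pearson's r of 0.76 (100000 permutations of calves within diets, 2-sided, p = 0.0166, adjusted over 3 pairs p = 0.0499) and a Spearman's rho of 0.38 (permutation p = 0.234, adjusted p = 0.352). Without the 2 calves farthest from the median of ROBO4, VTM calf 40 and CON calf 1, r was 0.38, so the relation rested on those calves. Without VTM calf 40 alone r was 0.58 (permutation p = 0.219), and with any other 1 of the 12 calves left out it was 0.74 to 0.82, with an unadjusted permutation p of at most 0.0426. Since NOTCH4 was also picked for its correlations with other genes in these calves, its p is not independent evidence.

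The relations of F2R with the other receptors did not pass the test after adjustment. For ROBO4 and F2R r was -0.35 (permutation p = 0.274, adjusted p = 0.274) and rho was 0.06 (permutation p = 0.871, adjusted p = 0.871), and r was 0.51 without the same 2 calves. For NOTCH4 and F2R r was -0.66 (permutation p = 0.0494, adjusted p = 0.0741) and rho was -0.55 (permutation p = 0.0706, adjusted p = 0.212), and r was -0.06 without them. The sign or size of each relation with F2R thus depended on 2 calves, and no adjusted p was under 0.05.

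Within VTM alone the extreme values of calf 40 set the correlations. Over the 6 VTM calves r was 0.93 for ROBO4 and NOTCH4, -0.71 for ROBO4 and F2R and -0.87 for NOTCH4 and F2R, and over the 5 without calf 40 it was -0.57, 0.71 and -0.14. Over the 6 CON calves r was 0.62, 0.00059 and -0.31. Of these 6 within-diet relations none had an adjusted p under 0.312 by the exact permutation test, and the lowest unadjusted p was 0.0694, for NOTCH4 and F2R in VTM. With all 14 calves, r of ROBO4 and NOTCH4 was 0.70 in CON and 0.80 in VTM (n = 7 each), and it was 0.63 in CON without calf 19 and -0.81 in VTM without calf 40.

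**Figure D3:**
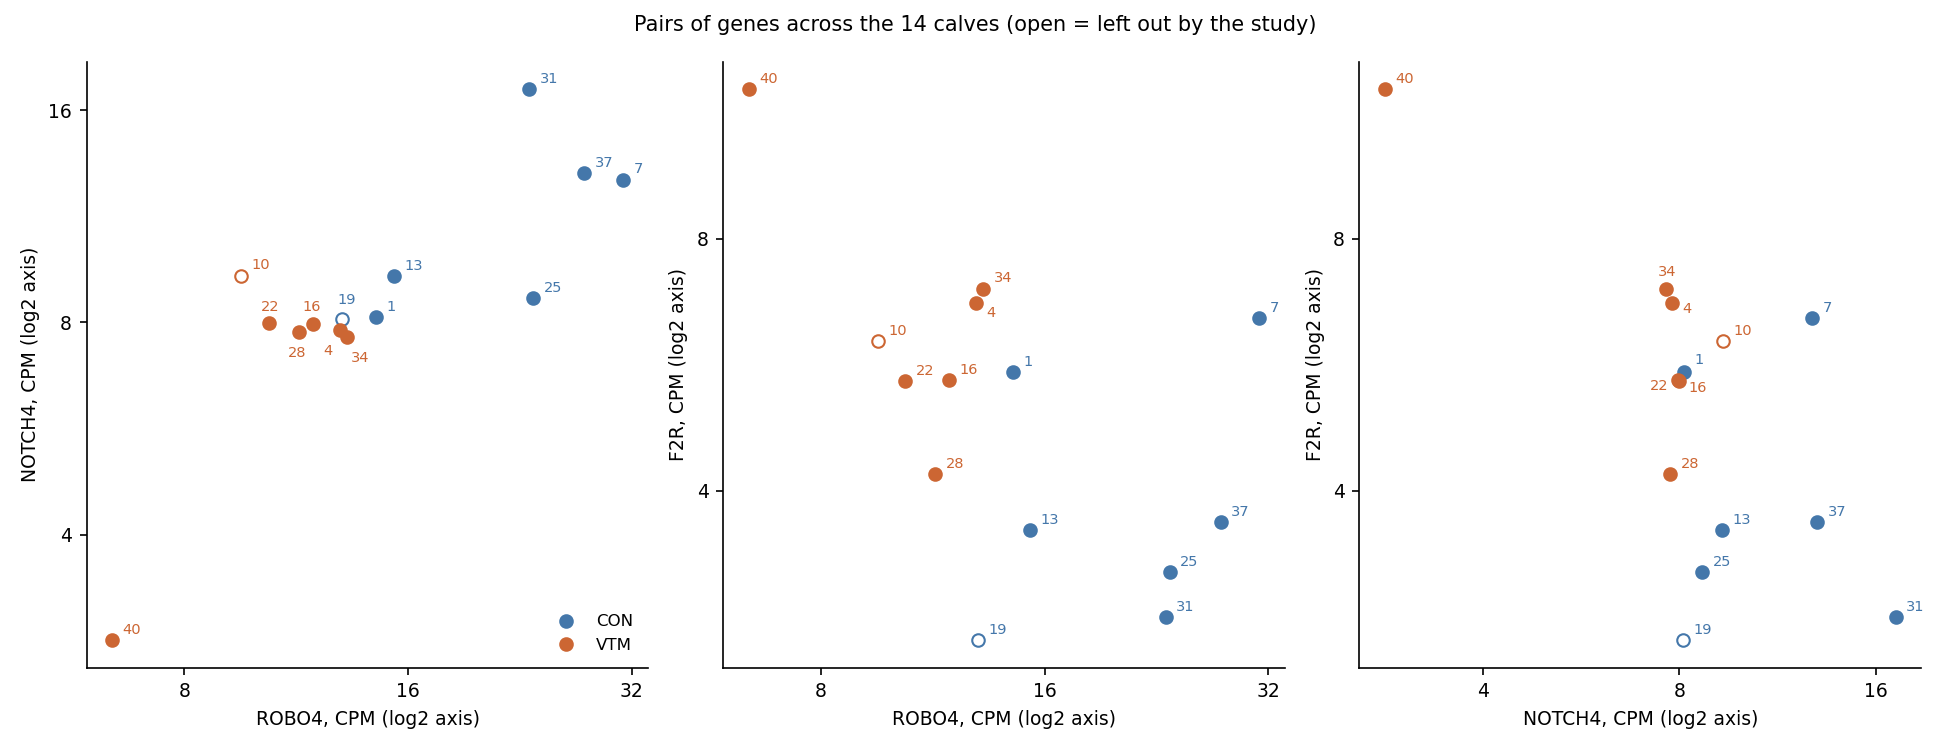
Pairs of the 3 genes across the 14 calves, in CPM after TMM normalization on log2 axes, with calf numbers, CON in blue, VTM in orange and the calves the study left out as open points. VTM calf 40 lies alone at 6.39 CPM of ROBO4, 2.84 CPM of NOTCH4 and 12.1 CPM of F2R, while the other VTM calves are bunched and the CON calves are spread along ROBO4.

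Other endothelial genes were compared with the 3 receptors in the same calves. Of 43 pan-endothelial and sinusoidal marker genes, only 7 had an identifier: ENG, a TGF-beta co-receptor, EMCN, a sialomucin of capillaries and veins, EGFL7, a secreted vessel protein, the transcription factors FLI1 and SOX18, ARHGEF15, and STAB1, a scavenger receptor of sinusoids. All 7 were lower in VTM past the threshold of the study (edgeR, unadjusted p of at most 0.05 and a log2 fold change of 0.5 or more in size), where 2.85% of the tested genes were lower and 0.864% higher. The adjusted p of each was 0.791. Names were known almost only for genes that the study had picked on these calves, so this count is not independent evidence of a direction, and PECAM1, CDH5 and the other 34 markers were not analysed here. No gene had an adjusted p of at most 0.05 with edgeR or DESeq2, while 690 and 880 had an unadjusted p of at most 0.05.

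The median log2 fold change of the 7 was -0.73, with a range of -0.87 to -0.63, so ROBO4 was further down than any of them and NOTCH4 near their middle. The median over all tested genes was -0.02. Nothing is read from this gap, since the 7 were named almost only through the study's picks on these calves. ENG was at 287 ± 74.8 CPM in CON and 182 ± 20.1 CPM in VTM (SD, n = 6 each), with a log2 fold change of -0.66 (SE 0.17). SOX18 was at 45.0 ± 14.5 CPM in CON and 27.2 ± 6.32 CPM in VTM, with -0.73 (SE 0.22). FLI1 was the only one of the 7 with no overlap between the 12 calves, at 10.3 to 15.8 CPM in CON and 1.93 to 9.67 CPM in VTM. Over all 14 calves 5 of the 7 were past the threshold, 3 without VTM calf 40, 7 without CON calf 19 and 7 without both, and in the 12 without VTM calf 40 there were 6. All 7 fold changes were negative in all 14 calves and in those without VTM calf 40, with medians of -0.59 and -0.60. The same limit holds for these signs. With 1 of the 12 calves left out, 4 to 7 of the genes were past the threshold, with 4 in the fits without CON calf 31 and without VTM calf 4.

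VTM calf 40 did not behave alike in the 7 genes. It was the lowest of the 7 VTM calves in ENG, FLI1 and ARHGEF15, as it was in ROBO4 and NOTCH4, and the highest in EGFL7 and SOX18. FLI1 was at 1.93 CPM there and at 7.30 CPM or more in the other VTM calves. CON calf 19 was the lowest CON calf in 4 of the 7, and on average its endothelial genes differed from the CON median by -0.72 on the log2 scale, within the range of -0.87 to -0.44 in VTM calves. CON calf 31, by contrast, was above that median in each of the 7, by 0.69 on average, and it was the highest calf in NOTCH4. CON calf 1, low in ROBO4 and NOTCH4, was below the median in 7 of 7. In bulk liver, fewer endothelial cells and less RNA of these genes per cell cannot be told apart.

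**Figure D4:**
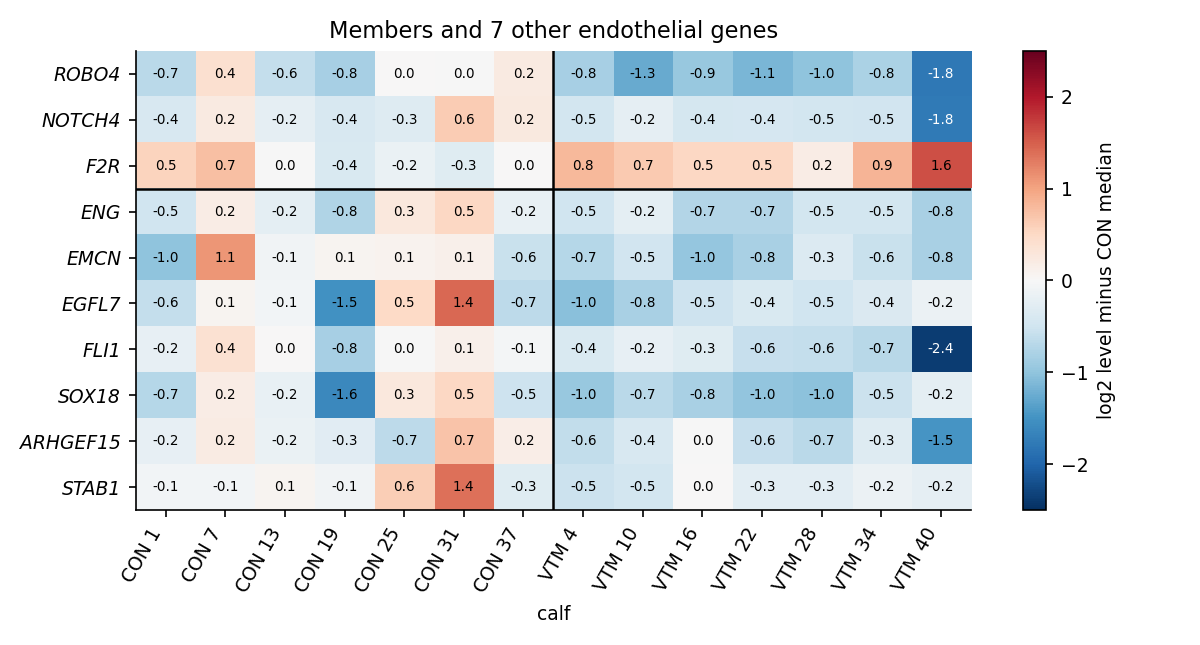
Level of the 3 receptors and 7 other endothelial genes in each of the 14 calves, as log2(CPM + 0.5) minus the median of the 6 CON calves that the study analysed, with blue for lower and red for higher values. VTM calf 40 ranges from -2.37 in FLI1 to -0.15 in the 7 genes, and F2R is above the CON median in every VTM calf while ROBO4 and NOTCH4 are below it.

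The likeness of each receptor to the 7 genes was described by r over the 12 calves after the diet means were subtracted, with no test, since the points share libraries and depth. The median r was 0.52 for ROBO4, 0.27 for NOTCH4 and -0.40 for F2R, and without VTM calf 40 it was 0.49, 0.47 and -0.22. ROBO4 was positively correlated with all 7 genes, NOTCH4 with 6 and F2R with 2, where 54.6%, 53.5% and 46.0% of all tested genes were. The r of ROBO4 was near 0 for EGFL7, STAB1 and SOX18, at 0.02, 0.03 and 0.08. The range was 0.02 to 0.71 for ROBO4, -0.10 to 0.88 for NOTCH4 and -0.60 to 0.15 for F2R. Over all tested genes the median was 0.05, 0.05 and -0.05. ROBO4 was most like FLI1, at 0.71, and ENG, at 0.61, and NOTCH4 was most like ARHGEF15, at 0.88, and FLI1, at 0.85. The order depended on VTM calf 40. Without it ROBO4 was at 0.53 with FLI1, below ENG at 0.62 and EMCN at 0.60. NOTCH4 was then at 0.81 with ARHGEF15 and 0.47 with FLI1. The 7 genes were picked on these calves and NOTCH4 partly for its correlations, and whether the receptors differ in this likeness was not tested.

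Among all tested genes, the 5 most like ROBO4 over the 12 calves had r of 0.85 to 0.89, and 3 of them had a name. These were CREB3L1, a transcription factor of secretory cells, at 0.89, MALL, a membrane protein of lipid rafts, at 0.86, and PRR36, at 0.85. They were at 0.82, 0.80 and 0.76 without VTM calf 40. The 5 most like NOTCH4 had r of 0.94 to 0.95, with FAM171A2 at 0.95 as the only named gene, and 0.85 without VTM calf 40. The 5 most like F2R had r of 0.89 to 0.91, and none had a name in the sources used here. These are the highest of 13307 correlations over 12 calves, and such a search gives high values by itself. They were not tested, and no partnership between genes is read from them.

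Few partners of the 3 receptors could be named. Of 89 genes of the SLIT-ROBO, Notch, thrombin receptor and VEGF pathways, 6 had an identifier, and none was a SLIT ligand, a ROBO or Notch paralog, a Notch ligand or another thrombin receptor. Of the 6, 4 were lower in VTM past the threshold and none was higher, where 2.85% of the tested genes were lower and 0.864% higher. The adjusted p was 0.791 or more for each. Names were known almost only for genes that the study had picked on these calves, so this count is not independent evidence of a direction. HEYL, a target of Notch signalling, was at 48.7 ± 22.6 CPM in CON and 31.6 ± 9.62 CPM in VTM (SD, n = 6 each), with a log2 fold change of -0.62 (SE 0.28). HEYL was highest among VTM calves in calf 40, at 45.7 CPM, where NOTCH4 was lowest. HES4, another Notch target, was at 2.82 ± 1.45 CPM in CON and 2.43 ± 1.53 CPM in VTM, with -0.22 (SE 0.67), and had 0 counts in VTM calf 40.

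On the thrombin side, ARRB2, a beta-arrestin that uncouples activated receptors from their G proteins, was at 33.7 ± 10.5 CPM in CON and 20.2 ± 7.16 CPM in VTM (SD, n = 6 each), with -0.74 (SE 0.25). Its direction was opposite to that of F2R. SERPIND1, which encodes the thrombin inhibitor heparin cofactor II made by hepatocytes, was at 992 ± 724 CPM in CON and 506 ± 313 CPM in VTM, with -0.97 (SE 0.52), and did not pass. Among growth factors, VEGFB had a log2 fold change of -0.84 (SE 0.30) and PDGFB, which endothelium releases to recruit pericytes, of -0.57 (SE 0.22). All 6 fold changes were negative, in the 12 calves and in all 14. Because the 6 were named almost only through the study's picks, their shared sign is not independent evidence of a direction. Over all 14 calves edgeR put 2 of the 6 past the threshold, 4 without CON calf 19 and 5 without both CON calf 19 and VTM calf 40. With CON calf 19 kept and VTM calf 40 left out it put 0 past it and 0 at an unadjusted p of 0.05 or less, and the median log2 fold change was -0.56 against -0.54 in all 14. In the 12 calves without VTM calf 40 there were 4, and DESeq2 put 5 past it in the 12.

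Some markers of other liver cell types also passed the threshold, though none had an adjusted p under 0.791. Of all tested genes, 2.85% were lower in VTM past it and 0.864% higher. These markers too were named almost only through the study's picks on these calves, so no direction is read from their counts. Their part in the levels of the 3 receptors was not tested. Of 12 stellate cell and fibroblast markers 5 had an identifier, and 3 were lower in VTM past the threshold, DCN, COL1A1 and COL3A1, while LRAT, the retinol-storing enzyme of stellate cells, was higher, at 8.27 ± 1.998 CPM in CON and 14.7 ± 2.77 CPM in VTM (SD, n = 6 each). Their summed level was 1241 to 4002 CPM in CON and 1199 to 2235 CPM in VTM. LRAT thus shared the direction of F2R, and the collagens that of ROBO4 and NOTCH4. The remaining matched marker, RELN, was also higher in VTM, with a log2 fold change of 0.91 (SE 0.47), and did not pass. CON calf 19, the lowest CON calf in F2R, was at 15.1 CPM of LRAT, the highest of the 7 CON calves. VTM calf 40, the highest calf in F2R, was at 14.2 CPM of LRAT, the 4th lowest of the 7 VTM calves.

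The remaining lists held 0 to 3 matched genes each, and the same limits hold for them. Of 10 hepatocyte markers 2 were matched, and they went opposite ways. AHSG was higher past the threshold, with a log2 fold change of 0.67 (SE 0.28). TTR was lower, at -0.99 (SE 0.52), and did not pass. Their summed level, mostly AHSG, was 5804 to 12353 CPM in CON and 7078 to 16262 CPM in VTM. Of 6 cholangiocyte markers 3 were matched, with a sum of 44.3 to 100.7 CPM in CON and 27.0 to 69.0 CPM in VTM. KRT7 and KRT19 were lower past the threshold. SOX9 went the other way, with a log2 fold change of 0.54 (SE 0.69), and did not pass. It had 0 counts in VTM calf 40. The smooth muscle marker TAGLN, 1 of 6, was lower, at 52.2 to 154 CPM in CON and 33.96 to 77.4 CPM in VTM. The Kupffer cell marker TIMD4, 1 of 10, did not pass, at 6.21 to 29.2 CPM in CON and 5.94 to 11.2 CPM in VTM. Of 5 lymphatic markers CCL21 and RELN were matched and neither passed. They went opposite ways, with a log2 fold change of -1.15 (SE 0.54) for CCL21 and 0.91 (SE 0.47) for RELN. RELN is also on the stellate cell list. Their sum was 33.4 to 77.3 CPM in CON and 59.8 to 98.0 CPM in VTM, where most of it was RELN. No marker of platelets or erythroid cells was matched, so blood cells, some of which carry F2R in other species, were not examined here.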

How the data were processed

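Strand-specific libraries of poly(A) RNA from 14 calf livers were sequenced. The authors trimmed reads, mapped them to ARS-UCD1.2 using STAR 2.7.5 and deposited the raw count of each gene of Ensembl release 109, with no normalization or gene filter. The strand setting of the counts is not given in the sources used here, and reads that overlap on opposite strands may have been assigned by it.

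Counts were analysed as deposited with edgeR 4.0.16 in R 4.3.3 (filterByExpr, TMM, quasi-likelihood test with diet as the only term, Benjamini-Hochberg adjustment) on the study's 12 calves. The threshold was an unadjusted p no higher than 0.05 and a log2 fold change of 0.5 or more in size. DESeq2 1.42.0, RLE size factors, other count filters, all 14 calves, and each calf left out in turn were alternatives. Correlations used CPM of the 12-calf fit, and printed levels the scale of all 14 libraries. On simulated counts with 200 of 13023 genes changed 3-fold, edgeR put 177 of them and 491 others past the threshold, and 140 and 7 at an adjusted p of 0.05. Depth was 13382264 to 20125409 counts, and intervals cover counting error alone. No pair of libraries of a diet was alike within sampling noise (chi-square per gene at least 36.05).

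The members and lists were chosen with earlier results of these data known. Genes named are the 3 receptors, the matched genes of fixed lists that passed the threshold, otherwise up to 4 of each list with the highest level, and the 5 genes most like each receptor. Names came from the supplementary tables for 629 identifiers. Levels were not compared between genes, as gene lengths were not used.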

Additional observations from a re-analysis of the deposited data

Results flagged for a closer look

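In 32 groups of 6 calves, 1 for each of 16 genes in each diet, 4 groups had a calf farther from the others than Dixon's 95% limit, and chance flags about 1 in 20 groups. Of these 4, 3 were VTM calf 40: NOTCH4 at 2.835 CPM, with the next calf at 7.629 CPM, F2R at 12.06 CPM, with the next at 6.975 CPM, and FLI1 at 1.93 CPM, with the next at 7.302 CPM. The fourth was EMCN in CON calf 7, at 12.76 CPM, with the next CON calf at 6.225 CPM. The rate of 1 in 20 is for independent groups. These groups share the same 6 calves per diet, so nothing is read from the number flagged.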

How the results depend on the processing

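The log2 fold changes of ROBO4, NOTCH4 and F2R kept their sign and stayed within the replicate spread under all 20 alternatives each, and with 1 calf left out they ranged from -1.13 to -0.92, from -0.80 to -0.56 and from 0.44 to 0.84. Past the threshold, 494 genes became 630 with DESeq2, 1003 with no filter on low counts, 275 in all 14 calves, 311 in all 14 without VTM calf 40, and 286 (without CON calf 31) to 1039 (without CON calf 37) with 1 calf left out. The 7 endothelial genes past it became 5 in all 14, 3 in all 14 without VTM calf 40, 7 without CON calf 19, 7 without both, and 4 to 7 with 1 calf left out. The 4 pathway genes became 2 in all 14 calves, 0 in all 14 without VTM calf 40, 4 without CON calf 19, 5 without both, and 2 to 4 with 1 calf left out, with 2 without CON calf 7 and without VTM calf 4.

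The diet-centred r of ROBO4 and NOTCH4 was 0.60, 0.69 and 0.48 over all 14 calves without VTM calf 40, without CON calf 19 and without both, and 0.58 to 0.82 with 1 calf left out, and its adjusted p was over 0.05 in 12 alternatives, those 3 included, and under it in 6. That of ROBO4 and F2R turned positive, at 0.30 over all 14 without VTM calf 40, 0.073 without both and 0.10 in the 12 without VTM calf 40, and ranged from -0.67 to 0.10 with 1 calf left out. That of NOTCH4 and F2R was -0.013 over all 14 without VTM calf 40 and -0.25 without both. With 1 of the 12 calves left out it ranged from -0.81 to -0.27. Without CON calf 7 both relations with F2R had an adjusted p under 0.05, and without CON calf 25 that of NOTCH4 and F2R did. The genes were picked on these calves, so these p are not independent evidence, and both fits kept VTM calf 40. With VTM calf 40 and CON calf 1 also left out, r without CON calf 7 was 0.16 for ROBO4 and F2R. For NOTCH4 and F2R it was then -0.27 without CON calf 7 and -0.23 without CON calf 25. The cause of these changes was not tested. No paired analysis was possible because calf numbers are not shared between the diets. F2R, at 35 to 200 counts, was the most limited by depth.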
